A study of Danio rerio with 18 samples.

Results

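The genes described here carry a signal from Toll-like receptors at the cell surface or in endosomes to NF-κB, a family of transcription factors that switches on inflammatory genes. They were the 9 genes named myd88, irak4, traf6, tab1, nfkb1, nfkb2, rela, nfkbiaa and nfkbiab, taken by gene name from a table of 31624 Ensembl genes. The table held 8 of them, and irak4 matched no row and was not analysed here. Of the 8, 7 passed the low-count filter and were tested among 15722 genes. The gene nfkb1 had 72 counts in all and did not pass, so its values are given without a test.

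In zebrafish, as in mammals, the adaptor Myd88 binds the inner domain of an activated Toll-like receptor or interleukin-1 receptor and recruits Irak kinases. The ubiquitin ligase Traf6 then activates the Tak1 kinase, whose partner is Tab1, and Tak1 switches on the IκB kinase complex. That complex marks the inhibitor IκBα for destruction, and the freed NF-κB dimers, built from subunits such as RelA, p50 (from nfkb1) and p52 (from nfkb2), enter the nucleus. The IκBα gene is itself a classical NF-κB target, so that new inhibitor closes the loop, and zebrafish carry it as the copies nfkbiaa and nfkbiab. Most of these steps act on proteins, and counts of mRNA do not measure them.

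Whole larvae of the AB strain were sampled as pools after the first-feeding stage, in 18 libraries that form 6 groups of 3. Embryos were incubated at 24 or 32 °C until first feeding and then brought to a challenge temperature of 24 or 32 °C, which gave the combinations 24 × 24 °C, 24 × 32 °C and 32 × 24 °C (incubation × challenge). At each combination, 3 libraries came from larvae kept for 24 h with lipopolysaccharide (LPS) of Pseudomonas aeruginosa, an outer membrane molecule of Gram-negative bacteria, and 3 came from control larvae held without LPS. The labels give the LPS dose as 10 mg/L, whereas the methods of the study print it in µg/L. No group carried a mutation or a transgene. Larvae incubated at 24 °C needed more hours to reach first feeding, so age in hours cannot be told apart from incubation temperature. Only the 24 × 24 °C larvae had no change of temperature after incubation. In comparisons with them, the shift itself cannot be told apart from the temperatures compared. LPS pools came from the larvae that had survived, and survival differed between the combinations. The numbers in the titles name libraries, and p-values measure the spread between these pools.

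The libraries held 1868228 to 8261920 counts, with 5075072 to 8261920 in the 24 × 24 °C controls, 2088918 to 6679159 in the 24 × 24 °C LPS libraries and no more than 3257523 in any library of the other groups. Levels are in CPM, a gene's count scaled to the library total after TMM adjustment, and a change was called at an adjusted p under 0.05 with a fold change of at least 1.5. Markers of muscle, epidermis, liver, pancreas, neurons, lens, erythrocytes, neutrophils and macrophages were all detected, whereas lymphocyte markers, scarce at this stage, summed to 1.92 to 8.36 CPM per library. In whole larvae, fewer cells of a type and less RNA per cell cannot be told apart.

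None of the 7 tested genes was called with LPS in any temperature group when edgeR was fitted to all 18 libraries. On only the 6 libraries of the 24 × 24 °C comparison, edgeR and DESeq2 each called 1, nfkbiaa. These fits called 327 and 343 of all genes, against 67 by edgeR on all 18 libraries. At 24 × 24 °C, 0 of 7 were called while 0.426% of all tested genes were. The shares of all genes called were 1.95% at 24 × 32 °C and 0.0318% at 32 × 24 °C, and there too the count was 0 of 7. Averaged over the 3 groups, 2.51% of all genes were called and 0 of the 7. At an unadjusted p under 0.05, edgeR found 2, 1 and 1 of the 7 in the 3 groups, where 6.82%, 16.8% and 5.38% of all genes stood, and 2 in the average, against 14.4% of all genes. DESeq2 on the same 18 libraries called 0 in each and found 1, 1, 1 and 2 at the unadjusted threshold. Of all genes, it called 137, 472, 60 and 465. The nearest to a call were nfkbiaa, which was higher with LPS in the averages of all 3 groups, and traf6, which had few counts.

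**Figure D1:**
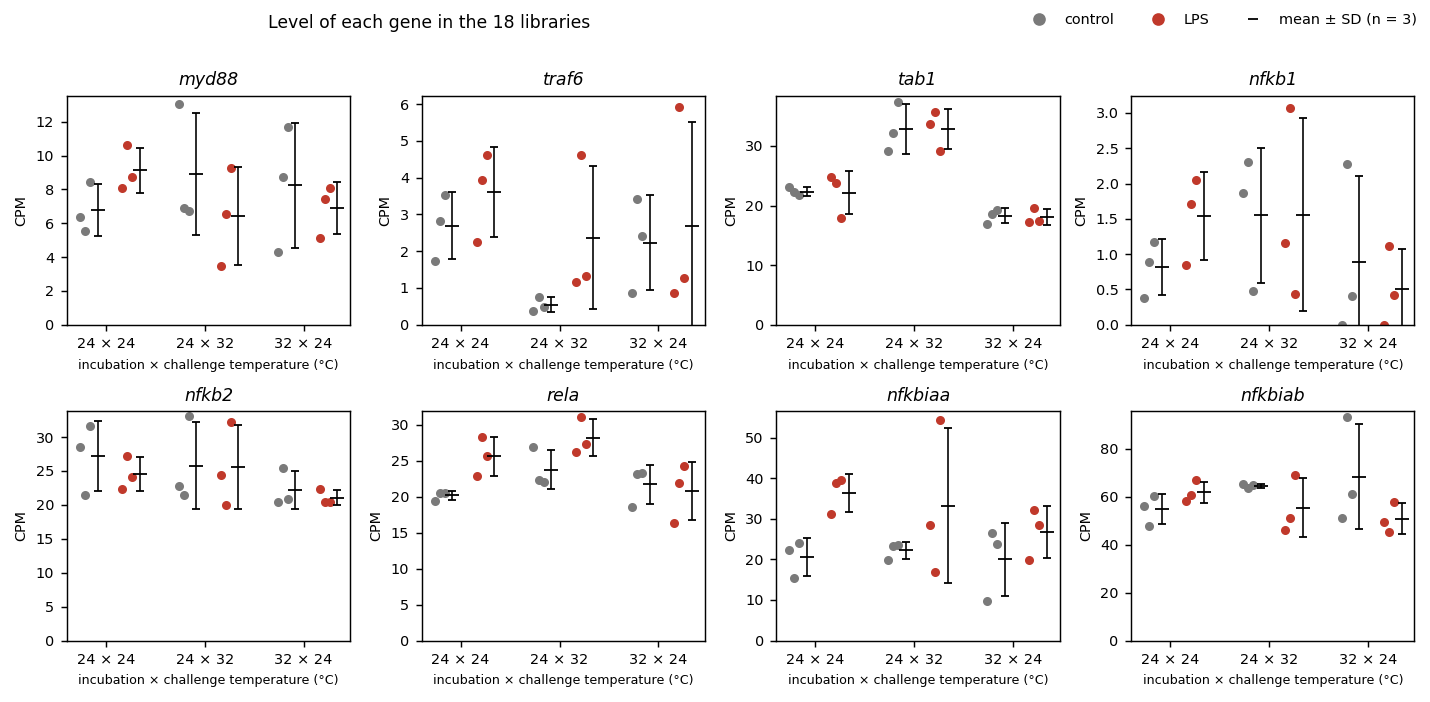
Levels of the 8 genes found in the table, in CPM on linear axes that start at 0, against the incubation × challenge temperature. Points are single libraries, grey for controls and red for LPS, and the bars beside them are the mean ± SD of 3 libraries, cut at 0 where they reach it. The 6 libraries of the 24 × 32 °C larvae sit highest for tab1, and the 3 LPS libraries sit above the 3 controls for nfkbiaa and rela at 24 × 24 °C.

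The IκBα copy nfkbiaa (ENSDARG00000005481) stood at 22.3, 15.4 and 24.1 CPM in the 24 × 24 °C controls and at 31.1, 38.7 and 39.5 CPM with LPS. The groups did not overlap, with every LPS library above every control, as was the case for 9.24% of all tested genes in that comparison. Its level was 1.75-fold higher with LPS (log2 fold change 0.81, SE 0.34, 95% interval 1.07- to 2.87-fold), which the edgeR fit of all 18 libraries did not call (adjusted p = 0.579). The call depended on which libraries entered the fit. When edgeR used only the 6 libraries of that comparison, the change was called with an adjusted p of 0.0165, and DESeq2 on these 6 gave 0.00549. These fits called 327 and 343 of all genes, against 67 by edgeR on all 18 libraries. The study, which also used DESeq2 to compare LPS with control, lists nfkbiaa among its up-regulated genes at 24 × 24 °C. Group SDs were 4.62 and 4.65 CPM at 24 × 24 °C and between 2.12 and 19.1 CPM in the other groups.

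In the 24 × 32 °C larvae, nfkbiaa was at 19.8, 23.4 and 23.5 CPM in the controls and at 28.5, 16.9 and 54.2 CPM with LPS. The LPS libraries lay on both sides of the controls, and LPS replicate 3 was the highest of all 18 libraries. The log2 fold change was 0.58 (SE 0.38, edgeR adjusted p = 0.475), and it was -0.009 without LPS replicate 3. At 32 × 24 °C, the controls had 9.75, 26.6 and 23.7 CPM and the LPS libraries 19.8, 32.2 and 28.5 CPM. These groups overlapped, as they did for all 7 genes at this combination, where 8.5% of all tested genes did not overlap. Within each of the 3 same-numbered pairs of libraries, nfkbiaa was higher with LPS, as were 14.4% of all tested genes. The labels do not say whether equal numbers mark pairs. The study states that its experiment was repeated 3 times with randomly chosen broodstock, but not whether the library numbers follow those repeats. Control replicate 1 had the lowest nfkbiaa level of the 18 libraries. Here the log2 fold change was 0.46 (SE 0.38, edgeR adjusted p = 1.0), and leaving out single libraries gave 0.099 (without control replicate 1) to 0.73.

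Averaged over the 3 groups with equal weights, nfkbiaa was 1.53-fold higher with LPS (log2 0.61, SE 0.21, 95% interval 1.12- to 2.09-fold), with an edgeR adjusted p of 0.146. Leaving out single libraries gave adjusted p-values from 0.0284 to 0.262, and the change was called only without 24 × 32 °C LPS replicate 2, at a log2 fold change of 0.72. The LPS effect on nfkbiaa was not shown to differ with temperature. Both difference tests gave 0 calls among the 7 genes, against 0.00636% of all genes for 24 × 32 °C minus 24 × 24 °C and 0% for 32 × 24 °C minus 24 × 24 °C. At an unadjusted p under 0.05, edgeR and DESeq2 each found 0 and 1 of the 7 in these tests, against 7.54% and 2.57% of all genes by edgeR.

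The paralogue nfkbiab (ENSDARG00000007693) was not called in any comparison. It had 56.0, 47.9 and 60.3 CPM in the 24 × 24 °C controls and 58.1, 60.8 and 66.8 CPM with LPS. These groups overlapped, and the log2 fold change was 0.17 (SE 0.18, edgeR adjusted p = 0.983). With challenge at 32 °C, it was at 65.3, 63.7 and 64.7 CPM in the controls and at 45.9, 51.1 and 69.2 CPM with LPS. The controls were close together and LPS replicate 3, which was highest for nfkbiaa, was again the highest of its group. At 32 × 24 °C, the controls had 51.0, 93.1 and 61.1 CPM and the LPS libraries 49.4, 45.2 and 57.8 CPM. The log2 fold change there was -0.43 (SE 0.19, edgeR adjusted p = 0.883), with control replicate 2 far above the others, and without that library it was -0.14. The gene was lower with LPS in each of the 3 same-numbered pairs, as were 14.3% of all tested genes. With the pairs as a block in a fit of these 6 libraries, chosen after seeing the data, edgeR gave adjusted p-values of 0.552 for nfkbiaa and 0.65 for nfkbiab. The LPS effect on nfkbiab at 32 × 24 °C was lower than that at 24 × 24 °C by a log2 difference of -0.59 (SE 0.26, unadjusted p = 0.0325), which was lost after adjustment over all genes (edgeR adjusted p = 1.0) and was -0.31 without control replicate 2 at 32 × 24 °C.

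Within each library, the ratio of nfkbiaa to nfkbiab counts does not depend on library size. It was chosen after the values were seen and is given without a test. At 24 × 24 °C, it was 0.399, 0.321 and 0.400 in the controls and 0.535, 0.637 and 0.592 with LPS. The 32 × 24 °C controls had 0.191, 0.286 and 0.388 and the LPS libraries 0.400, 0.713 and 0.493. In both of these groups every LPS library exceeded every control. Taken alone, both genes overlapped between LPS and control at 32 × 24 °C. The share of other gene pairs whose ratio separates in this way was not computed. At 24 × 32 °C, the controls had 0.303, 0.367 and 0.363 and the LPS libraries 0.620, 0.331 and 0.783, so that LPS replicate 2 fell among the controls. Means of controls and LPS larvae were 0.373 ± 0.045 and 0.588 ± 0.051 (SD, n = 3) at 24 × 24 °C, 0.344 ± 0.036 and 0.578 ± 0.23 at 24 × 32 °C, and 0.288 ± 0.099 and 0.535 ± 0.16 at 32 × 24 °C. The smallest count in any ratio was 34 for nfkbiaa and 79 for nfkbiab. The sources used here do not give how reads that fit both copies were counted.

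**Figure D2:**
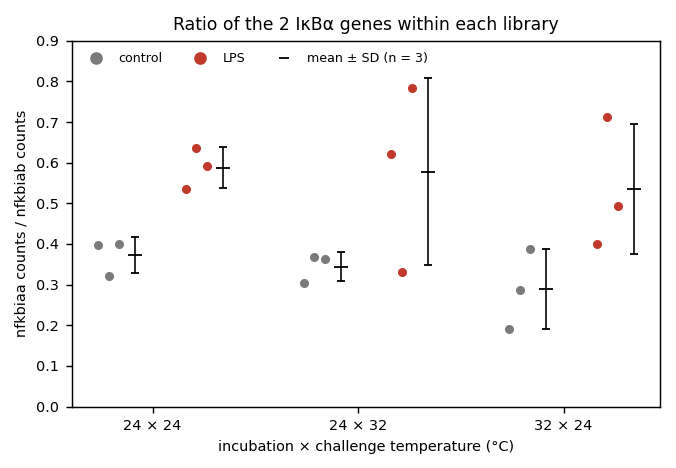
Ratio of nfkbiaa to nfkbiab counts within each library (no unit) against the incubation × challenge temperature, with single libraries as points and the mean ± SD of 3 libraries beside them. The LPS libraries lie above the controls at 24 × 24 °C and 32 × 24 °C, and 1 of 3 LPS libraries lies among the controls at 24 × 32 °C.

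Genes whose levels followed nfkbiaa most closely over the 18 libraries were prrg2 (Pearson r = 0.877 on log2 CPM), clic3 (0.873), chmp1b (0.858), selenow2b (0.856) and ier2a (0.853), out of 13245 genes with a mean of at least 5 CPM. Of these, ier2a is an immediate early response gene and chmp1b encodes a subunit of the ESCRT-III membrane scission machinery. The 18 libraries share their 6 groups and their differences in depth, so these values describe a likeness of pattern. Among the 7 tested genes, the closest pair was myd88 with nfkbiab at r = 0.612, and rela with nfkbiaa had 0.462.

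The subunit gene rela (ENSDARG00000098696), which encodes the main transactivating NF-κB subunit, had 19.4, 20.6 and 20.6 CPM in the 24 × 24 °C controls and 22.9, 28.3 and 25.7 CPM with LPS. All 3 LPS libraries lay above the controls, whose spread was small, as was the case for 9.24% of all tested genes. The level was 1.26-fold higher (log2 0.34, SE 0.16, 95% interval 1.01- to 1.58-fold) and was not called (edgeR adjusted p = 0.686). At 24 × 32 °C, the controls had 26.9, 22.3 and 22.1 CPM and the LPS libraries 26.2, 31.1 and 27.3 CPM. LPS replicate 1 lay below control replicate 1 there, with a log2 fold change of 0.25 (SE 0.17, edgeR adjusted p = 0.492). At 32 × 24 °C, rela was at 18.6, 23.2 and 23.3 CPM in the controls and at 16.3, 21.9 and 24.2 CPM with LPS. These groups overlapped over most of their range. The averaged LPS effect on rela was 0.18 on the log2 scale (SE 0.10, 95% interval 0.98- to 1.30-fold, edgeR adjusted p = 0.428).

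Like rela, nfkb2 (ENSDARG00000038687), the source of p52 in the alternative NF-κB pathway, was counted well in every library. Its group means lay between 21.0 ± 1.1 CPM in the 32 × 24 °C LPS larvae and 27.2 ± 5.2 CPM in the 24 × 24 °C controls (SD, n = 3). LPS and control libraries overlapped in all 3 groups, and the averaged LPS effect was -0.08 on the log2 scale (SE 0.12, 95% interval 0.80- to 1.12-fold). A 1.5-fold change of nfkb2 in either direction lay outside that interval.

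The p50 precursor gene nfkb1 (ENSDARG00000105261) stayed between 0 and 10 counts per library. In CPM, the 24 × 24 °C controls had 0.385, 0.895 and 1.18 and the LPS libraries 0.848, 1.71 and 2.05. The groups overlapped. The range at 24 × 32 °C was 0.480 to 2.30 CPM in the controls and 0.441 to 3.07 CPM with LPS. At 32 × 24 °C, replicate 1 of the controls and replicate 1 of the LPS libraries had no count, and the other 4 libraries had 0.402 to 2.28 CPM. A count of 0 in a library allows up to 3 counts, and differences in nfkb1 were not tested.

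The adaptor gene myd88 (ENSDARG00000010169) had 6.35, 5.52 and 8.46 CPM in the 24 × 24 °C controls and 8.06, 10.6 and 8.73 CPM with LPS. LPS replicate 1 lay below control replicate 3, and the log2 fold change was 0.42 (SE 0.32, edgeR adjusted p = 0.952). At 24 × 32 °C, the controls had 13.1, 6.91 and 6.71 CPM and the LPS libraries 3.49, 6.53 and 9.26 CPM. The log2 fold change was -0.45 (SE 0.39, edgeR adjusted p = 0.602), with control replicate 1 the highest of all 18 libraries, and it was -0.063 without that library. At 32 × 24 °C, myd88 was at 4.30, 8.74 and 11.7 CPM in the controls and at 5.16, 7.41 and 8.08 CPM with LPS. All 3 LPS libraries fell within the range of the controls. Compared with the LPS effect at 24 × 24 °C, that at 24 × 32 °C was lower by a log2 difference of -0.87 (SE 0.50, 95% interval 0.26- to 1.13-fold), which was not called (edgeR adjusted p = 0.703) and was -0.48 without the same control library.

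Few reads came from traf6 (ENSDARG00000028058), the ubiquitin ligase downstream of Myd88, with 166 counts in all. At 24 × 32 °C, the controls had 1, 2 and 1 counts (0.373, 0.768 and 0.480 CPM) and the LPS libraries 2, 12 and 3 counts (1.16, 4.61 and 1.32 CPM). Every LPS library lay above every control in CPM, as for 10% of all tested genes, and most of the LPS counts came from replicate 2. The fitted log2 fold change was 2.15 (SE 0.93, 95% interval 1.16- to 16.9-fold) and was not called (edgeR adjusted p = 0.245). Without LPS replicate 2, it was 1.14. The CPM values at 24 × 24 °C were 1.73, 2.83 and 3.53 in the controls and 2.26, 3.94 and 4.62 with LPS, and those at 32 × 24 °C were 0.860, 3.42 and 2.41 against 0.859, 5.93 and 1.28. In these 2 groups LPS and control libraries overlapped. The averaged LPS effect was 0.94 on the log2 scale (SE 0.42, edgeR adjusted p = 0.303), and it was 0.50 without 32 × 24 °C LPS replicate 2 and 0.60 without 24 × 32 °C LPS replicate 2.

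The Tak1 partner gene tab1 (ENSDARG00000036613) was close to its control level with LPS. Its log2 fold changes were 0.02 at 24 × 24 °C, 0.003 at 24 × 32 °C and -0.01 at 32 × 24 °C, with SEs of 0.15 to 0.17. The averaged effect had a 95% interval of 0.88- to 1.15-fold, the narrowest of the 7 genes, which held no change of 1.5-fold.

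**Figure D3:**
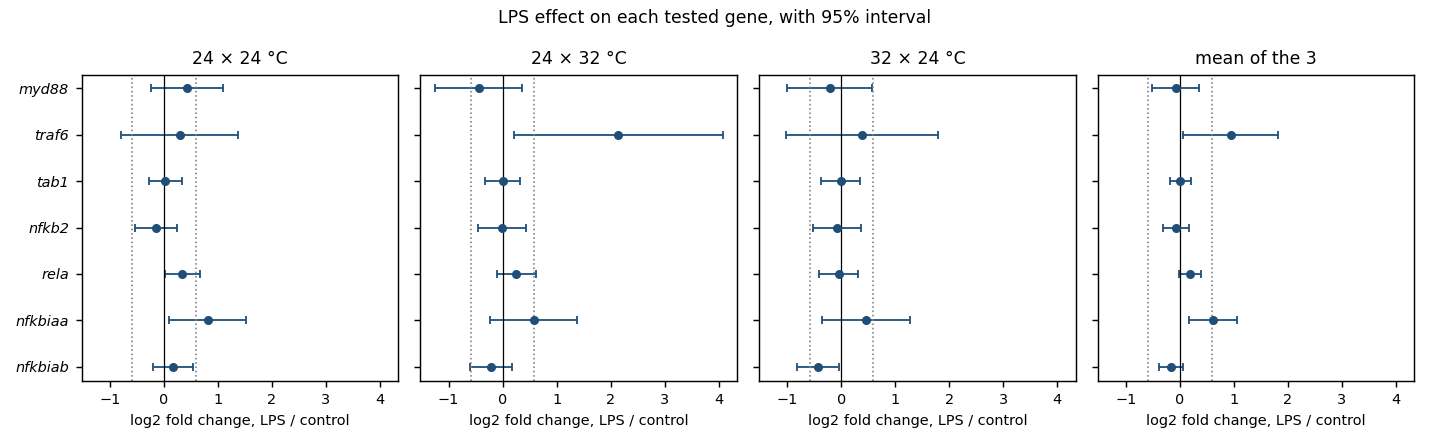
Log2 fold change of LPS over control for the 7 tested genes in each temperature group and averaged over the 3 groups. Points are edgeR estimates, bars are 95% intervals, the solid line marks no change and the dotted lines a 1.5-fold change. Intervals of traf6 are the widest in each panel. Before adjustment for the number of genes tested, 0 lies outside the intervals of nfkbiaa and rela at 24 × 24 °C, traf6 at 24 × 32 °C, nfkbiab at 32 × 24 °C, where the level was lower with LPS, and nfkbiaa and traf6 in the average.

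Control larvae were also compared between temperatures, with the 24 × 24 °C controls shared by both comparisons. In these larvae, tab1 had 23.1, 22.2 and 21.7 CPM at 24 × 24 °C and 29.1, 32.2 and 37.4 CPM at 24 × 32 °C. The groups did not overlap, and the level at 24 × 32 °C was 1.47-fold higher (log2 0.55, SE 0.15, 95% interval 1.18- to 1.82-fold). The edgeR adjusted p was 0.027, so the change passed the p threshold and stopped short of the 1.5-fold threshold. In that comparison 6.21% of all genes were called, and 7.99% passed the adjusted p at any fold. Of the 7 genes, 0 were called and 2 had an unadjusted p under 0.05, by edgeR and by DESeq2 alike, beside 22.7% of all genes by edgeR. Leaving out single libraries gave log2 fold changes of 0.45 to 0.63 for tab1 and adjusted p-values of 0.023 to 0.129. The adjusted p was above 0.05 without any one of the 24 × 24 °C controls, without 24 × 32 °C control replicate 2 or 3, with no low-count filter (0.0916) and with DESeq2 on only the 6 libraries compared (0.0565).

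With LPS, tab1 had 24.7, 23.8 and 18.0 CPM at 24 × 24 °C and 33.7, 35.7 and 29.1 CPM at 24 × 32 °C. At 32 × 24 °C, it had 16.9, 18.6 and 19.3 CPM in the controls and 17.2, 19.6 and 17.4 CPM with LPS. All 6 libraries of the 24 × 32 °C larvae (29.1 to 37.4 CPM) thus lay above the other 12 libraries (16.9 to 24.7 CPM). This arrangement was noticed after the values were seen and was not tested. It was found in 2.38% of all tested genes, and tab1 was the 1 gene of the 7 that had it. Some marker sums also differed between these controls, in both directions. The 4 skeletal muscle markers summed to 34323 to 37248 CPM in the 24 × 24 °C controls and 44006 to 51602 CPM in the 24 × 32 °C controls, and the 5 neuron marker rows to 1185 to 1437 and 1855 to 1986 CPM. The 2 lens marker rows summed to 2206 to 2404 and 3378 to 3984 CPM, and the 4 epidermis markers to 8155 to 10903 and 12131 to 17674 CPM. With LPS, these sums at 24 × 32 °C overlapped those at 24 × 24 °C, for example at 40419 to 42954 against 34442 to 42911 CPM for muscle. Neutrophil sums were lower at 24 × 32 °C, at 35.1 to 66.7 against 88.6 to 105 CPM in the controls. With LPS, they were 53.5 to 63.9 against 73.1 to 98.1 CPM. Of 3 tested neutrophil markers, 1 was called lower between the controls, beside 6.21% of all genes called in either direction. Lymphocyte sums were lower in the 24 × 32 °C controls too (1.92 to 5.28 against 5.39 to 7.31 CPM). The part of these cells and tissues in the levels of tab1 and traf6 was not tested.

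Between the same controls, traf6 went the other way. All 3 controls at 24 × 32 °C, with 4 counts among them, lay below all 3 at 24 × 24 °C, which had 58 counts in deeper libraries. Mean levels were 0.540 CPM at 24 × 32 °C and 2.70 CPM at 24 × 24 °C. Each 24 × 32 °C control had 1 or 2 counts, fewer than the 3 that a count of 0 allows. The fitted log2 fold change was -2.28 (SE 0.82, 95% interval 0.063- to 0.678-fold), with an edgeR adjusted p of 0.0928. Among the fits that tested traf6, only the one with the replicate number as a block called it. There the log2 fold change was -2.29 and the edgeR adjusted p was 0.0351. That fit called 1080 of all genes, and the fit without the block 976. The fit after thinning and those of only the libraries compared did not test traf6, and DESeq2 on all 18 libraries gave it no adjusted p. Groups that did not overlap were common in this comparison, at 33.3% of all tested genes, and 4 of the 7 were among them. The other 2 were rela and nfkbiab, both higher at 24 × 32 °C, with 1.18-fold levels and edgeR adjusted p-values of 0.425 and 0.472.

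Controls incubated at 32 °C and then brought to 24 °C differed less from those at 24 × 24 °C. Of all genes, 0.49% were called and 20.8% did not overlap between the groups, while 0 of the 7 were called, 0 had an unadjusted p under 0.05 by edgeR or DESeq2 (12.7% of all genes by edgeR), and only tab1 did not overlap. The 32 × 24 °C controls had 0.82-fold the tab1 level (log2 -0.29, SE 0.16, edgeR adjusted p = 0.454). For nfkbiab the log2 fold change was 0.32 (SE 0.18, edgeR adjusted p = 0.492), and it was 0.033 without 32 × 24 °C control replicate 2.

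Other genes of the pathway were taken from lists by role. The Toll-like receptors and their co-receptors themselves were barely counted in whole larvae. Of 19 such genes in the table, 17 had a mean below 1 CPM, among them tlr4ba (0.523 CPM), tlr4bb (0.0251 CPM), tlr21 (0.224 CPM), tlr22 (0.616 CPM) and ly96, the Md-2 co-receptor (0.178 CPM). In mammals, TLR4 with MD-2 binds LPS, whereas the sensing of LPS by zebrafish Tlr4 proteins is less settled. Only tlr5b, a copy of the flagellin receptor gene, passed the filter, at a mean of 6.75 CPM, and its averaged LPS effect was 0.21 on the log2 scale (SE 0.18, edgeR adjusted p = 0.674). The next highest, tlr18, had a mean of 1.90 CPM.

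Of 33 tested pathway genes in 5 roles, 0 were called in any single temperature group and 1 in the averaged LPS effect, where 2.51% of all genes were called. At an unadjusted p under 0.05, edgeR found 0, 6 and 1 of the 33 in the groups, beside 6.82%, 16.8% and 5.38% of all genes. Median log2 fold changes of the 33 were -0.002, 0.01 and 0.02, beside 0.29, 0.003 and -0.05 for the 7 genes and -0.0007, 0.002 and 0.002 for all tested genes. The adaptors and kinases with the largest averaged effects were traf2b, which encodes a ubiquitin ligase of TNF receptor signalling (log2 0.67, SE 0.31), and ticam1, the Trif adaptor gene (-0.35, SE 0.22). In the IκB kinase complex and its activators, map3k14a, which encodes the NF-κB inducing kinase, had 0.25 (SE 0.17) and ikbkg, the regulatory subunit gene Nemo, had -0.16 (SE 0.09). Among the feedback inhibitors, sigirr, an inhibitory receptor gene of the family, had 0.56 (SE 0.32) and otulinb, a deubiquitinase gene, had -0.23 (SE 0.17). None of these changes was called, with edgeR adjusted p-values of 0.333 to 0.604.

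The called gene was bcl3 (ENSDARG00000087832), which encodes a nuclear member of the IκB family that binds p50 and p52. It rose with LPS in the average over the groups, with a log2 fold change of 1.30 (SE 0.35, edgeR adjusted p = 0.0385). The bcl3 level at 24 × 32 °C was 0.373, 1.15 and 0.959 CPM in the controls and 4.07, 2.31 and 6.62 CPM with LPS. These groups did not overlap, with every LPS library above every control as for 10% of all tested genes, and each control had 1 to 3 counts. At 24 × 24 °C, the controls had 3.46, 2.09 and 5.05 CPM and the LPS libraries 4.38, 6.34 and 4.11 CPM, and at 32 × 24 °C the values were 0.287, 3.04 and 2.41 against 2.15, 5.19 and 3.83. Both of these comparisons overlapped. The log2 fold change was 0.49 (SE 0.44) at 24 × 24 °C and 2.35 (SE 0.72) at 24 × 32 °C. All 24 × 32 °C controls lay below all 24 × 24 °C controls for bcl3, and 33.3% of all tested genes did not overlap between these controls in either direction. The call ended in 12 of the 18 fits that left out 1 library, with adjusted p-values up to 0.105, and the log2 fold change stayed between 1.1 and 1.48. The 12 were the fits without 24 × 24 °C control replicates 1 and 2, without any 24 × 24 °C LPS or any 24 × 32 °C control library, without 24 × 32 °C LPS replicates 1 and 3 and without 32 × 24 °C LPS replicates 2 and 3. The other members of its role, including rel (-0.20, SE 0.20) and nfkbil1 (-0.15, SE 0.16), were not called.

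Several known NF-κB target genes rose with LPS in the same libraries. Of 9 tested, 5, 2 and 1 were called higher in the 3 groups, beside 0.426%, 1.95% and 0.0318% of all genes called in either direction. This list was chosen with earlier results of these data known, so its counts are a description and no independent support. At 24 × 24 °C, 8 of the 9 were higher with LPS, as were 7839 of all 15722 tested genes, and irg1l was lower (log2 -0.48, SE 0.71). At 24 × 32 °C, irg1l was higher with LPS (log2 3.10, SE 0.84) and was not called (edgeR adjusted p = 0.082). Its libraries overlapped at 32 × 24 °C, with controls at 8.31 to 111 CPM and LPS libraries at 28.4 to 88.2 CPM. The averaged effect called 6, beside 2.51% of all genes, and there il1b had a log2 fold change of 2.98, cxcl8a 1.33, cxcl8b.1 3.09, ptgs2 (ENSDARG00000010276) 3.27, mmp9 3.35 and socs3 (ENSDARG00000026611) 0.79. Of these, mmp9 was also called between the controls, with a log2 fold change of -2.32 at 24 × 32 °C against 24 × 24 °C. The study names these ptgs2 and socs3 rows ptgs2b and socs3b. A second ptgs2 row (ENSDARG00000004539) was not among the 6. Its log2 fold change was 0.57 (SE 0.31) at 24 × 24 °C and 0.03 (SE 0.38) at 24 × 32 °C. At 32 × 24 °C, this row had 5.73, 11.4 and 13.3 CPM in the controls and 14.2, 25.2 and 19.6 CPM with LPS. Every LPS library there lay above every control. Markers of neutrophils and macrophages, cells that use this pathway, were summed in the same libraries. The 5 neutrophil marker rows, 1 of them at 0 throughout, summed to 88.6 to 105 CPM in the 24 × 24 °C controls and 73.1 to 98.1 CPM with LPS. Neutrophil sums of controls and LPS libraries also overlapped at 24 × 32 °C (35.1 to 66.7 against 53.5 to 63.9 CPM) and at 32 × 24 °C (33.5 to 89.7 against 28.8 to 77.4 CPM). The 14 macrophage marker rows, 1 of them at 0, summed to 33.0 to 71.5 CPM in the 24 × 24 °C controls and 25.7 to 31.2 CPM with LPS. These macrophage sums did not overlap, but those at 24 × 32 °C (43.7 to 63.8 against 34.4 to 49.2 CPM) and at 32 × 24 °C (14.9 to 77.2 against 17.6 to 35.3 CPM) did. In the average over the groups, 1 of 3 tested neutrophil markers was called higher and 1 lower, and 1 of 3 macrophage markers was called lower. The 4 epidermis markers summed to less with LPS in every library than in any control at 24 × 32 °C (6274 to 9390 against 12131 to 17674 CPM) and at 32 × 24 °C (5887 to 9158 against 10341 to 12419 CPM), and overlapped at 24 × 24 °C (3332 to 8438 against 8155 to 10903 CPM). Of single tested genes, 8.5% did not overlap at 32 × 24 °C, in either direction. With LPS higher, 9.24% did not overlap at 24 × 24 °C and 10% at 24 × 32 °C. The shares with LPS lower, the direction of the macrophage and epidermis sums, are not given here. The part of these cells and tissues in the levels of nfkbiaa, rela and bcl3 was not tested.

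**Figure D4:**
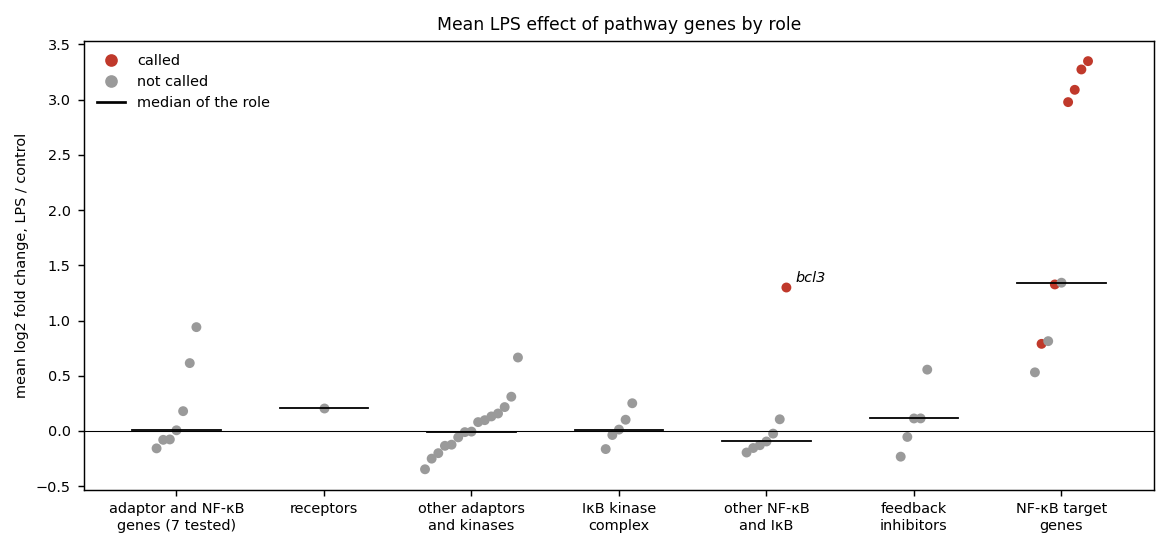
LPS effect averaged over the 3 temperature groups (log2 fold change, edgeR) for the 7 tested adaptor and NF-κB genes, other tested genes of the pathway by role and NF-κB target genes. Each point is a gene, red where called, and the black lines are medians of each role. The 6 called target genes reach log2 fold changes of 0.79 to 3.35, while bcl3 at 1.30 is the only called gene of the signalling roles.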

How the data were processed

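RNA-seq counted mRNA of whole larvae in 18 libraries. Per the labels, the authors used cutadapt 1.12 for trimming, TopHat2 2.1.0 for alignment against GRCz10 and HTSeq 0.6.1p1 for counting per Ensembl gene, and deposited raw counts without normalization. The sources used here do not give the strand setting. Gene names came from a table of Ensembl IDs and symbols.

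The analysis used edgeR 4.0.16 under R 4.3.3. Genes were kept by filterByExpr (minimum count 10, minimum total 15), scaled by TMM and fitted by robust quasi-likelihood on 6 group means. Each of 8 comparisons was adjusted by Benjamini-Hochberg over all 15722 genes. Levels (CPM) use no prior count, likeness of pattern used log2 CPM with a prior count of 2, and intervals come from the fit. The procedure was tested on simulated data. Alternatives were DESeq2 1.42.0 and its size factors, no filter, only the libraries compared, a replicate block, thinning to 1868228 counts (seed 20), no fold threshold and each library left out. Deviations from group means were correlated between control and LPS libraries with equal title numbers. All 3 pairs exceeded 0.1 only at 32 × 24 °C (0.195 to 0.559, against -0.100 to 0.117 at 24 × 24 °C and -0.032 to 0.182 at 24 × 32 °C). Equal numbers there were read as pairs for the counts of higher or lower pairs and in fits with a block. Fold changes, adjusted p-values and shares of called genes in that comparison come from unpaired fits unless a block is named. Libraries of unequal number there gave -0.497 to 0.386. Control replicate 3 was closer to LPS replicate 2 (0.386) than to LPS replicate 3 (0.195), so these values do not establish 3 pairs. Members, lists and tests were chosen with earlier results of these data known. Named genes were all members, pathway genes called in any comparison, and the 2 uncalled genes of each role with the largest averaged effect and a mean of at least 1 CPM.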

Additional observations from a re-analysis of the deposited data

How the results depend on the processing

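Each group had 3 pools, and traf6 (166 counts in all) and nfkb1 (72) had the fewest counts of the genes found in the table. The number of called genes among the members tested stayed at 0 under every alternative at 24 × 32 °C, at 32 × 24 °C, in both difference tests and between the 32 × 24 °C and 24 × 24 °C controls. Fits of only the libraries compared at 24 × 32 °C or 32 × 24 °C tested 6 of the 7, without traf6. After thinning, traf6 was not tested either. At 24 × 24 °C, 1 gene (nfkbiaa) was called by edgeR on the 6 libraries compared (adjusted p = 0.0165) and by DESeq2 on the same 6 (adjusted p = 0.00549), an alternative chosen after seeing the data. Of all genes, these fits called 327 and 343, against 67 in the main fit. In the averaged LPS effect, leaving out single libraries gave 0 to 1 called genes, the 1 being nfkbiaa. Between the 24 × 32 °C and 24 × 24 °C controls, 1 gene was called with the replicate block (traf6), 1 after thinning and 1 without a fold threshold (both tab1, with thinning at a log2 fold change of 0.76 and an adjusted p of 0.0309), and leaving out single libraries gave 0 to 1, the 1 being tab1 without 24 × 32 °C control replicate 1. For each of these the cause was not tested. The restriction to the libraries compared gives no fit of its own for the averaged effect. Removal of both 32 × 24 °C libraries numbered 1, also chosen after seeing the data, left nfkbiaa at 0.27 on the log2 scale in that group.

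Some directions changed. For tab1 at 24 × 32 °C, the log2 fold change was -0.022 without a filter and -0.127 after thinning, and its averaged effect was -0.0068 without a filter. For nfkb2 at 24 × 32 °C it was 0.036 after thinning and 0.0042 with DESeq2 on the 6 libraries, and for rela at 32 × 24 °C it was 0.032 after thinning. Leaving out single libraries turned the direction within -0.558 to 0.118 for myd88 at 32 × 24 °C and -0.195 to 0.045 in its average, -0.967 to 0.838 for traf6 at 32 × 24 °C, and -0.060 to 0.114, -0.094 to 0.079, -0.064 to 0.032 and -0.029 to 0.032 for tab1 in the 3 groups and their average. It did so within -0.223 to 0.181 and -0.141 to 0.026 for nfkb2 at 24 × 32 °C and 32 × 24 °C, -0.170 to 0.090 for rela at 32 × 24 °C and -0.0090 to 0.907 for nfkbiaa at 24 × 32 °C.

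Across the 6 groups, replicate numbers were not read as pairs. Libraries of one number deviated together with a median correlation of 0.0175 over 45 pairs (-0.235 to 0.559), against -0.0138 over 90 other pairs. With the replicate block, 0 of the 7 genes were called in every comparison except the 24 × 32 °C controls against the 24 × 24 °C controls, where 1 was. In that comparison the block fit called 1080 of all genes. A block on the 6 libraries at 32 × 24 °C called 0 of 6 tested members and 121 of all genes. Without it, edgeR on the same 6 libraries called 3 of all genes.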
